A study of Mus musculus with 12 samples.

Results

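The Mir106b, Mir93 and Mir25 hairpins lie close together on chromosome 5 and give the miRNAs of the miR-106b, miR-93 and miR-25 cluster. Of the 637 miRNA entries counted in exosomes of mouse granulosa cells, 5 were taken as members of this cluster: mmu-miR-106b-5p, mmu-miR-106b-3p, mmu-miR-93-5p, mmu-miR-25-3p and mmu-miR-25-5p. The other arm of the miR-93 hairpin, mmu-miR-93-3p, was also listed but is not among the members. The rule that chose the members names them and uses no measured value, but it was set with earlier results of these data known. The 12 libraries were named CON, FAC, DFO and VE, with 3 libraries each. Cells of every group came from ovaries of female Kunming mice primed with a gonadotropin, spent 24 h in exosome-free medium and were then cultured for 48 h. CON cells stayed untreated, and FAC cells were given ferric citrate at 100 μM. Both other groups were given the same ferric citrate dose, DFO together with the iron chelator deferoxamine mesylate at 100 μM and VE together with VITE (vitamin E), a lipid-soluble antioxidant, at 200 μM. No group received the chelator or vitamin E without iron. Nothing in the sources used here says whether the 3 libraries of a group came from separate cultures, so p-values measure the spread between these libraries, which may be technical. The age of the mice that gave the cells was not stated for these libraries.

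A miRNA hairpin is cut into a duplex whose strands are named 5p and 3p after their arm. One strand is usually kept in the Argonaute protein, and its seed, bases 2 to 8, pairs with target mRNAs, so miRNAs with one seed share many predicted targets. The cluster is a paralogue of the miR-17 to miR-92a cluster and is known from proliferating cells, where miR-106b-5p and miR-93-5p target the cell cycle inhibitor Cdkn1a and miR-25-3p targets the pro-apoptotic gene Bcl2l11. The 3 hairpins lay within 498 bases of the minus strand of GRCm38.p6, in the order Mir106b, Mir93 and Mir25 along the transcript. In the GENCODE M21 annotation they lay in intron 13 of Mcm7-201, a protein-coding transcript of Mcm7 with 15 exons. Mcm7 encodes a subunit of the replicative helicase. Mir93 and Mir25 also overlapped an exon of Mcm7-202, a transcript with a retained intron.

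The hairpins are shown because both arms of each enter the arm ratios given later, with the mature 5p and 3p arms in capitals (RefSeq, GRCm38.p6).
Mir106b, chr5:138165737-138165818, minus strand: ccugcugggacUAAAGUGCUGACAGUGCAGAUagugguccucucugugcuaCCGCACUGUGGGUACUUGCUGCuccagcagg
Mir93, chr5:138165523-138165610, minus strand: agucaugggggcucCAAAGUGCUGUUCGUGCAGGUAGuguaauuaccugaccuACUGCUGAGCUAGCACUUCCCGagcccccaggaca
Mir25, chr5:138165321-138165404, minus strand: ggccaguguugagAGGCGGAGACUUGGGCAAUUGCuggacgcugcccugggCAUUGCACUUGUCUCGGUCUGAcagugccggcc

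The mature members are shown with the seed in capitals, since the seed divides them into 4 groups of potential targets.
mmu-miR-106b-5p: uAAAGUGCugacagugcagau
mmu-miR-93-5p: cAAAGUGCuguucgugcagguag
mmu-miR-25-3p: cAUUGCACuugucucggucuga
mmu-miR-106b-3p: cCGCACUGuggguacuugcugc
mmu-miR-25-5p: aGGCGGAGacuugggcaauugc
The seed AAAGUGC was common to mmu-miR-106b-5p and mmu-miR-93-5p, which matched at 16 of 21 bases aligned from the 5′ end. The seed AUUGCAC of mmu-miR-25-3p occurred in no other member. CGCACUG and GGCGGAG, the seeds of mmu-miR-106b-3p and mmu-miR-25-5p, were found in no other entry with a known sequence. In all, 551 of 642 miRNA names in the entries matched a mature sequence in RefSeq.

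The libraries held 452021 to 7565362 miRNA counts each. These were 3.28% ± 1.55 (mean ± SD, n = 3) of all reads of a library in CON and 24.7% ± 4.96 in FAC. The shares were 12.6% ± 7.16 in DFO and 11.97% ± 2.69 in VE. Levels are therefore given as normalized CPM, counts relative to the miRNA counts of the library after scaling with edgeR's TMM factors, and describe a miRNA relative to the other miRNAs of its library. More exosomes and more miRNA per exosome cannot be told apart in such values. A library in which a miRNA has 0 counts allows up to 3, the floor used here, which was between 0.397 and 6.64 CPM before the TMM factor. Reads copied by PCR are not separate molecules, so intervals and floors describe the error of counting alone.

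Of all counts on the members, 93.7% fell on mmu-miR-25-3p and 5.71% on mmu-miR-106b-3p. These were the members found in all 12 libraries with more than 3 counts. The others were rare: mmu-miR-93-5p held 0.306% of the member counts, mmu-miR-25-5p 0.283% and mmu-miR-106b-5p 0.013%. The cluster was thus seen almost wholly through the 3p arms of its outer hairpins. Together the members made up 1.16%, 0.788% and 0.438% of the miRNA counts in CON replicates 1 to 3. The share was 2.06%, 1.998% and 1.42% in FAC, 0.361%, 0.724% and 1.07% in DFO and 1.70%, 1.20% and 1.29% in VE. All FAC and VE libraries lay above all CON and DFO libraries. Shares of the summed members were not tested, since the sum follows mmu-miR-25-3p.

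**Figure D1:**
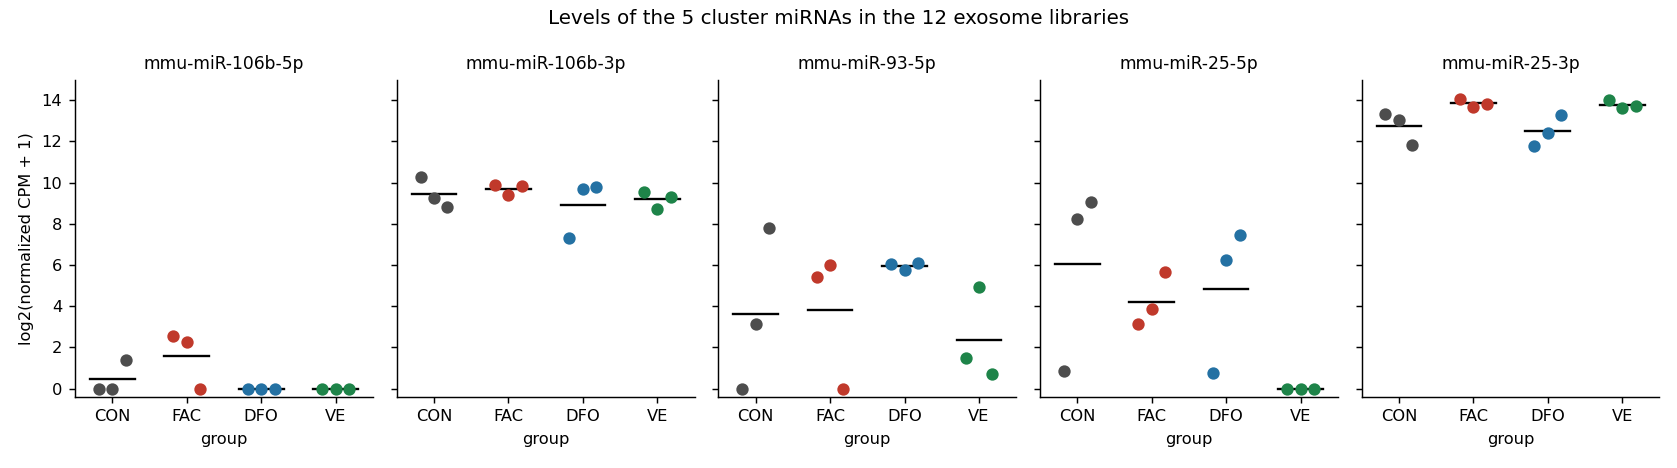
Level of each member in every library, as log2(normalized CPM + 1) on the vertical axis, by group on the horizontal axis; points are libraries in the order of replicates 1 to 3 and lines are means of the log2 values. mmu-miR-25-3p lay at the top in all 12 libraries, mmu-miR-25-5p was at 0 in the 3 VE libraries, and mmu-miR-106b-5p was at 0 in 9 libraries.

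mmu-miR-25-3p, which carries the miR-92 seed, was among the most counted miRNAs. It ranked between 10th and 28th by counts, with 2297 to 147582 reads. In CON it stood at 10239, 8454 and 3612 normalized CPM. In FAC it stood at 17284, 13163 and 14645 CPM. All 3 FAC libraries lay above all 3 CON libraries. In DFO the libraries were at 3560, 5370 and 9882 CPM, within the span of CON apart from DFO replicate 1, which was slightly lower. In VE they were at 16345, 12485 and 13685 CPM, again above every CON library. Group levels were 15031 ± 2087 CPM in FAC, 14172 ± 1976 in VE, 7435 ± 3429 in CON and 6271 ± 3256 in DFO. The FAC and VE levels overlapped, as did those of CON and DFO.

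Differences were tested with edgeR's quasi-likelihood test in 1 fit of all 12 libraries and 547 entries, and an entry was called at a fold change of at least 1.5 and an unadjusted p under 0.05. Both thresholds are those of the study, whose methods name no adjustment of p for the miRNAs, so the unadjusted p was used. The adjusted p (Benjamini-Hochberg) covers all 547 entries. SE values of edgeR were derived from the log2 fold change and its test statistic. They and the 95% intervals of fold changes thus restate the unadjusted p and are not separate evidence. Between FAC and CON, mmu-miR-25-3p was called higher in FAC, with a log2 fold change of 1.02 (SE 0.49, unadjusted p = 0.0399, adjusted p = 0.475 in edgeR). The call was lost without CON replicate 3, where the log2 fold change was 0.82 (edgeR adjusted p = 0.679), and without FAC replicate 1, where it was 0.86 (edgeR adjusted p = 0.738). With all libraries kept, it was also lost with DESeq2's RLE size factors in edgeR (0.91, unadjusted p = 0.0676, adjusted p = 0.544), with the stricter filterByExpr filter in edgeR (0.79, unadjusted p = 0.103, adjusted p = 0.467) and with edgeR on FAC and CON alone (1.01, unadjusted p = 0.0796, adjusted p = 0.6). Between FAC and DFO it was called higher in FAC by 1.26 (SE 0.50, unadjusted p = 0.0111, adjusted p = 0.192 in edgeR), with no overlap of the libraries, and without DFO replicate 1 the value was 1.10 (edgeR adjusted p = 0.565) and no call was made. Between VE and CON, the log2 fold change of 0.93 (SE 0.49) missed the threshold at an unadjusted p of 0.0593 (adjusted p = 0.46 in edgeR). Without CON replicate 1 it was 1.23 and past the threshold (unadjusted p = 0.0301, adjusted p = 0.404 in edgeR). DESeq2 (0.77, unadjusted p = 0.0437, adjusted p = 0.246) also passed it, as did edgeR without a composition factor (0.96), with library read totals (2.65) or on VE and CON alone (0.78), and limma with a pseudocount of 1 (3.03) or 0.1 (3.04). FAC and VE differed by 0.08 (SE 0.49, 95% interval -0.87 to 1.04), and DFO and CON by -0.25 (SE 0.49, 95% interval -1.21 to 0.71). Over the alternatives in edgeR, DESeq2 or limma, the adjusted p of mmu-miR-25-3p lay between 2.6e-05 and 0.738 for FAC against CON and between 0.0238 and 0.565 for FAC against DFO.

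The other abundant member, mmu-miR-106b-3p, comes from the strand opposite to the one with the miR-17 seed. It stood at 1254, 616 and 448 CPM in CON and at 936, 679 and 904 CPM in FAC. In DFO it was at 158, 833 and 886 CPM and in VE at 759, 416 and 641 CPM. The libraries of all groups overlapped, and the spread within CON and DFO was wider than any distance between group levels. The groups were at 839.6 ± 140 CPM in FAC, 772.7 ± 425 in CON, 625.7 ± 406 in DFO and 605.3 ± 174 in VE. It was called in none of the comparisons. Between FAC and CON the log2 fold change was 0.12 (SE 0.80, 95% interval -1.46 to 1.69).

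mmu-miR-93-5p, the member that best represents the miR-17 seed, was uneven between libraries of one group. Its counts were 0, 3 and 139 in CON and 357, 477 and 0 in FAC. In DFO they were 192, 300 and 89, and in VE 4, 81 and 2. It was thus above 3 counts in every DFO library and in 1 of 3 CON libraries. In CPM, CON replicate 3 was the highest of all libraries at 219, FAC reached 41.8 and 63.7 in replicates 1 and 2, DFO lay at 66.1, 53.8 and 66.8, and VE did not exceed 29.5. mmu-miR-93-5p was called in none of the comparisons, and its largest log2 difference was -2.82 between VE and CON (SE 1.86, 95% interval -6.47 to 0.83). Without CON replicate 3, which held nearly all CON reads, that value was 1.44, and between FAC and CON it changed from -1.10 to 3.48.

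mmu-miR-106b-5p, its seed partner, was found in 3 libraries. FAC replicates 1 and 2 had 41 and 28 counts (4.80 and 3.74 CPM), FAC replicate 3 had 0, and CON replicate 3 had 1. No count was found in the 6 DFO and VE libraries. Against the floor of 3 counts per library, the FAC mean was at least 2.23-fold higher than DFO and at least 2.52-fold higher than VE. With 1 library left out, these bounds lay between 1.47 and 3.62 and between 1.65 and 3.78, both lowest without FAC replicate 1. It was not called in either comparison (adjusted p = 0.458 and 0.521 in edgeR), nor without FAC replicate 3 (adjusted p = 0.477 and 0.522 in edgeR).

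mmu-miR-25-5p is the less used arm of the miR-25 hairpin. Its counts were 1, 115 and 343 in CON and 67, 100 and 245 in FAC. In DFO they were 2, 418 and 232, and in VE 0, 0 and 0. Of the 12 libraries, 5 thus had at most 2 counts, namely CON replicate 1, DFO replicate 1 and all VE libraries. In CPM the levels were 281 ± 270 in CON, 23.7 ± 22.8 in FAC and 83.3 ± 87.0 in DFO. On this scale FAC lay below CON replicates 2 and 3 but above CON replicate 1.

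Of all members, mmu-miR-25-5p was the only one with an adjusted p under 0.05 in this edgeR fit. Against VE it was at least 20.9-fold higher in FAC, taking 3 counts in each VE library as the floor (adjusted p = 0.00453 in edgeR). Without FAC replicate 3, which had the highest of the 3 FAC levels, it was at least 9.38-fold higher. The adjusted p in edgeR was 0.125, 0.0933 and 0.101 without VE replicate 1, 2 or 3, and 0.0967 after all libraries were thinned to 452021 counts. Over all alternatives tried, this adjusted p lay between 0.00261 and 0.331 for FAC against VE and between 8.56e-07 and 0.345 for VE against CON, from edgeR, DESeq2 or limma. VE was at least 249-fold lower than CON (adjusted p = 1.88e-05 in edgeR), although CON replicate 1 had a single count. Without CON replicate 3 it was at least 134-fold lower (adjusted p = 0.000612 in edgeR). Between FAC and CON it was called lower in FAC, with a log2 fold change of -3.57 (95% interval -6.51 to -0.63, unadjusted p = 0.0174, adjusted p = 0.328 in edgeR). The libraries overlapped, and no call was made without CON replicate 3 (-2.68), FAC replicate 1 (-3.22) or FAC replicate 2 (-3.37). With all libraries kept, the call was also lost under filterByExpr in edgeR (-3.62, unadjusted p = 0.0556, adjusted p = 0.41) and under library read totals in edgeR (-0.17, unadjusted p = 0.927, adjusted p = 0.995). The direction turned in limma on the RPM values, to 0.38 with a pseudocount of 1 (adjusted p = 0.838) and to 1.18 with 0.1 (adjusted p = 0.603). DFO differed from CON by -1.76 (SE 1.40) and FAC from DFO by -1.81 (SE 1.40), without a call.

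Counted over the 5 members, FAC against CON gave 1 called higher and 1 called lower, where 9.51% of all entries were called. FAC against DFO gave 1 higher (12.2% of all entries called), FAC against VE 1 higher (9.32%), DFO against CON none (7.68%) and VE against CON 1 lower (10.4%). At an adjusted p under 0.05 in edgeR, 1 member differed between FAC and VE (0.366% of all entries) and 1 between VE and CON (2.01%), in both cases mmu-miR-25-5p. None did between FAC and CON (0.183% of all entries), FAC and DFO (0.914%) or DFO and CON (0.548%). In these 3 comparisons, 2, 1 and 0 members were called at the unadjusted threshold in edgeR, and 2, 1 and 0 in DESeq2. DESeq2 called 72, 85 and 51 of all 547 entries in them. Libraries did not overlap for 1 member between FAC and CON (13.3% of all entries), 1 against DFO (16.6%), 1 against VE (14.6%), 0 for DFO against CON (6.03%) and 2 for VE against CON (13.0%). In the last, mmu-miR-25-5p was separated by a single count in CON replicate 1 (0.819 CPM). The floors of the VE libraries were higher, at 0.943 to 1.36 CPM. All these comparisons share libraries and are not independent. The median log2 fold change between FAC and CON was 0.12 over the members and 1.38 over all entries tested, and 0 over all entries with those absent from a whole group set at the floor.

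**Figure D2:**
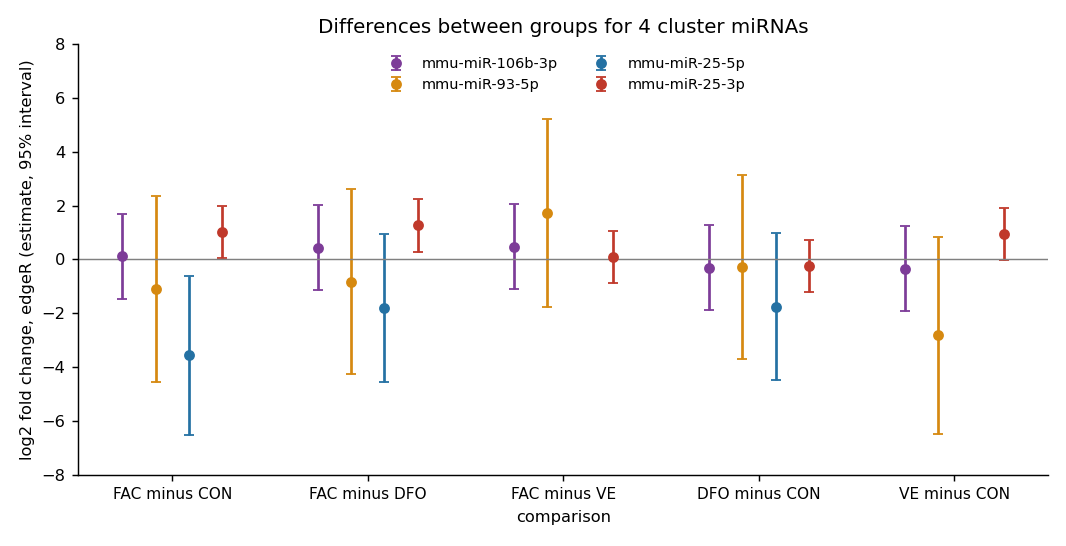
Log2 fold change from edgeR (vertical axis) in each comparison (horizontal axis), first group minus second, as points with 95% intervals. The intervals use an SE derived from the test statistic and so restate the unadjusted p. For mmu-miR-25-3p the interval lay above 0 when FAC was set against CON or against DFO. mmu-miR-25-5p is left out against VE, where it had 0 counts, and mmu-miR-106b-5p is left out throughout.

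The direction of several members depended on what a count was set against. Relative to all reads of a library (RPM), the miRNA share itself enters, which was higher in FAC than in CON. On that scale mmu-miR-25-3p was at 516, 142 and 92.9 RPM in CON and at 5940, 4088 and 2941 RPM in FAC. With library read totals as the scale, its log2 fold change was 4.11 (adjusted p = 2.6e-05 in edgeR), while the median over all entries tested was 4.35 on this scale. That median holds fitted values of entries absent from a whole group. A median with those set at the floor was not computed on this scale. mmu-miR-106b-3p, with 63.2, 10.3 and 11.5 RPM in CON and 322, 211 and 182 RPM in FAC, had a log2 fold change of 3.07 on it. Both abundant members were thus higher in every FAC library per read sequenced, and relative to the other miRNAs this held for mmu-miR-25-3p only. For mmu-miR-25-5p the group levels were 6.33 ± 7.002 RPM in CON and 5.61 ± 3.86 RPM in FAC, against 0 in VE.

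**Figure D3:**
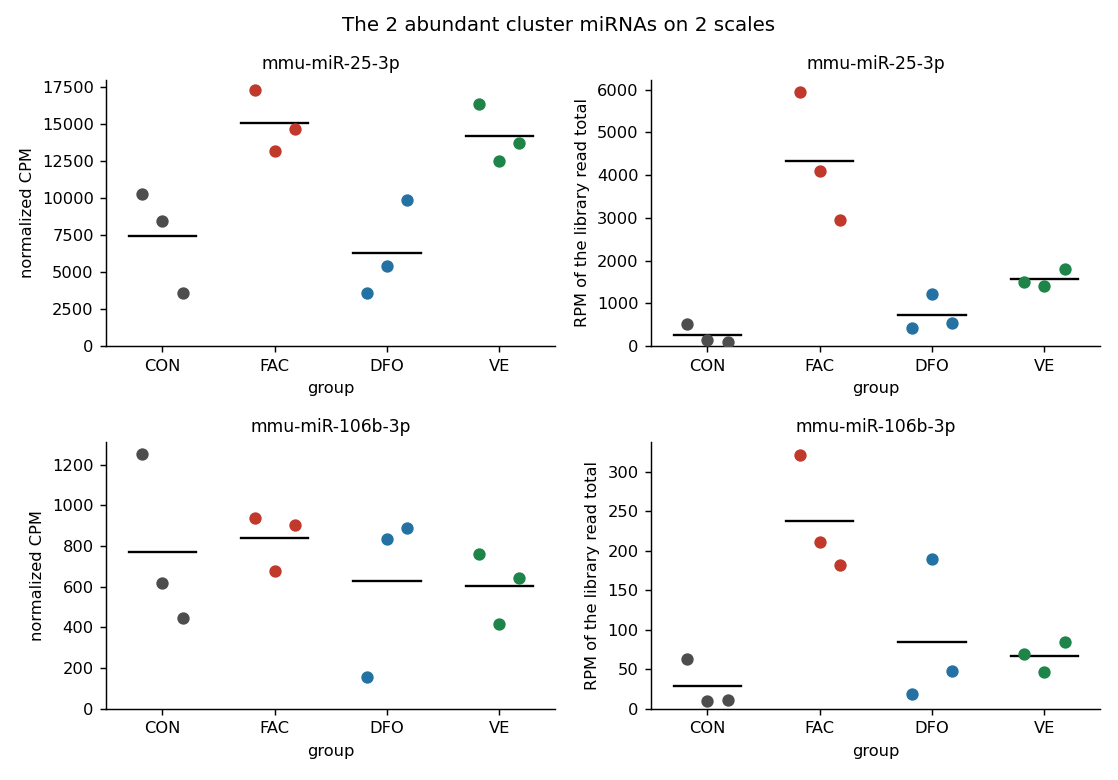
mmu-miR-25-3p (top) and mmu-miR-106b-3p (bottom) in each library by group, in normalized CPM (left) and in RPM of the library read total (right), on linear axes from 0; lines are group means. In RPM all FAC libraries lay above all CON libraries for both miRNAs, and in normalized CPM only for mmu-miR-25-3p.

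Ratios between arms of a hairpin compare reads within a library and do not change with its scaling. For the miR-106b hairpin the 3p arm held 99.5% to 100% of the reads of both arms in all 12 libraries. The 5p share was 0.511% (95% Wilson interval 0.377 to 0.692) in FAC replicate 1 and 0.548% (0.379 to 0.791) in FAC replicate 2. It was 0 of 4453 reads in FAC replicate 3, which allows up to 0.0674%. In CON replicate 2, with 234 reads, a share of up to 1.28% was allowed, so a share like that of FAC replicates 1 and 2 was not detectable there. In 6 other libraries with 0 such reads the limit was below those FAC shares: 0.196% in CON replicate 1, 0.0646% and 0.254% in DFO replicates 2 and 3, and 0.178%, 0.263% and 0.147% in VE. It was 0.655% in DFO replicate 1. No difference between groups passed an exact permutation test (two-sided, p between 0.4 and 1 over 6 comparisons, of which those of 3 libraries against 3 cannot go below 0.1).

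For the miR-25 hairpin the 3p arm was the main arm in every library, but its share varied more. It was 99.992%, 96.5% and 87.0% in CON, and CON replicate 3 had the highest 5p share of all libraries at 13.0% (95% Wilson interval 11.8 to 14.3). In FAC the 3p share was 99.95%, 99.90% and 99.66%, and in DFO 99.98%, 98.6% and 98.3%. In VE it was 100% in all libraries, with 0 of 36187, 34253 and 43545 reads on the 5p arm, which allows 5p shares of up to 0.00829%, 0.00876% and 0.00689%. The 3p share of VE lay above all libraries of FAC and of CON, and in both comparisons the exact permutation test gave p = 0.1, the smallest value that 3 libraries against 3 can give. Against CON this rested on a single 5p read of 12502 in CON replicate 1, below the floor of 3. Its 5p share of 0.0080% was within those allowed in VE replicates 1 and 2, so these libraries cannot be ordered. CON minus the 9 libraries with ferric citrate was -5.09 percentage points (94.5% against 99.6%, exact permutation test, two-sided, p = 0.0636). Adjusted over all 12 tests of arm shares, each of these exact tests had a p of 0.4. Without CON replicate 1, the difference was -7.82 points (exact permutation p = 0.0364), the smallest p that 2 libraries against 9 can give. Without CON replicate 2 or 3 it was -6.10 and -1.33 points (exact permutation p = 0.255 in each).

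The miR-93 hairpin was the one in which the 5p arm led. It had 1644 reads on the 5p arm and 77 on the 3p arm over all libraries, a 5p share of 95.5%. In 49 hairpins with both arms listed and at least 10000 reads, a minimum set after the values were seen, the 3p arm led in 24 and the 5p arm in 25. The rarer arm held a median of 0.901% of the reads, between 9.99e-05% and 41.4%. With 0.227% and 0.301%, the miR-106b and miR-25 hairpins took places 18 and 20 in ascending order.

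The ratio between the abundant members was computed after the values were seen and is given without a test. Per read of mmu-miR-106b-3p there were 8.17, 13.7 and 8.06 reads of mmu-miR-25-3p in CON. There were 18.5, 19.4 and 16.2 in FAC, 22.6, 6.45 and 11.1 in DFO and 21.5, 30.0 and 21.4 in VE. All FAC and VE libraries lay above all CON libraries, and DFO reached from below all CON libraries to above all FAC libraries. The ratio thus varied between 6.45 and 30.0 over the 12 libraries.

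**Figure D4:**
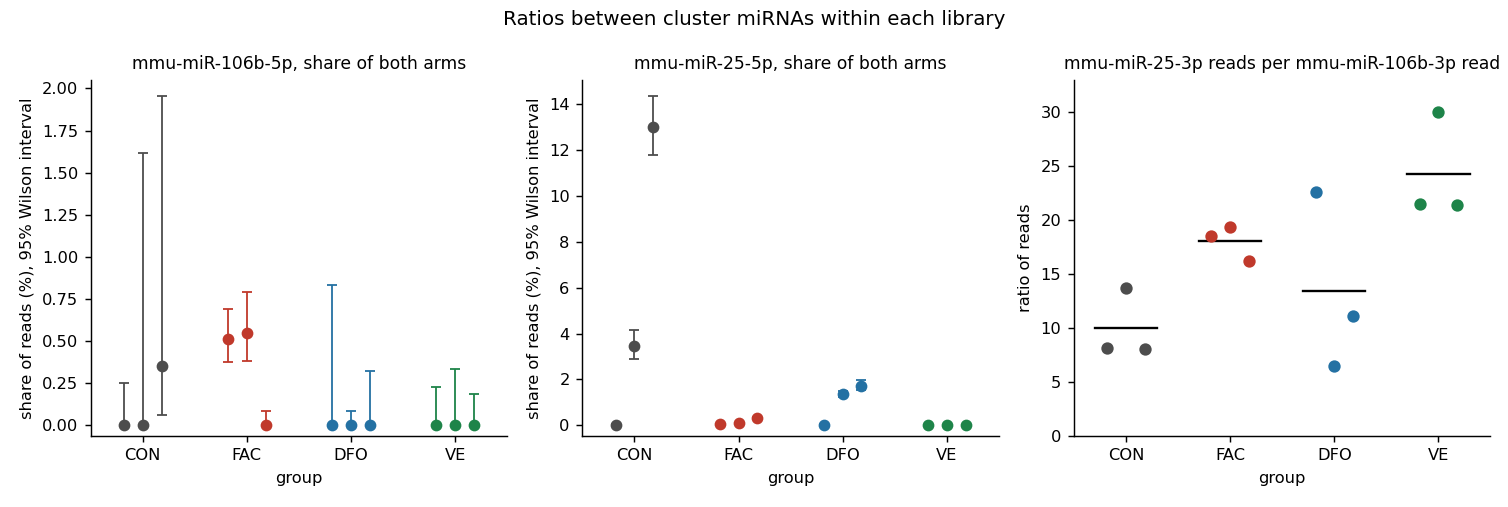
Share of mmu-miR-106b-5p among reads of both miR-106b arms (left), share of mmu-miR-25-5p among reads of both miR-25 arms (middle), both in percent with 95% Wilson intervals, and reads of mmu-miR-25-3p per read of mmu-miR-106b-3p with group means as lines (right), by library and group. The miR-25 5p share reached 13.0% in CON replicate 3 and was 0 in VE, and the ratio on the right was at least 16.2 in all FAC and VE libraries.

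Other miRNAs with the seeds of the cluster were much rarer than mmu-miR-25-3p. Of 9 seed relatives by name, 8 were listed and 7 were tested. The seed AUUGCAC had 527948 counts in 5 entries, of which mmu-miR-25-3p held 503706. The next was mmu-miR-92a-3p, with a mean of 444 CPM over the libraries, and then mmu-miR-92b-3p with 263 CPM. Their sequences show how near they are to mmu-miR-25-3p, with the seed in capitals.
mmu-miR-25-3p: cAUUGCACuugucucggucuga
mmu-miR-92a-3p: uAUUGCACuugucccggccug
mmu-miR-92b-3p: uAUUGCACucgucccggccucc
mmu-miR-25-3p and mmu-miR-92a-3p shared a run of 12 bases, shorter than the shortest reads of 15 bp, and how reads that match several miRNAs were counted was not stated. The seed AAAGUGC had 2181 counts in 6 entries, 1644 of them on mmu-miR-93-5p, and the entries summed to between 0 and 220 CPM per library.

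Among the seed relatives, FAC had 1 called lower against CON, 1 lower against DFO and 0 against VE. DFO and VE, each set against CON, gave 1 higher and 1 lower each. Of all entries tested, 9.51%, 12.2%, 9.32%, 7.68% and 10.4% were called in these comparisons, in the same order. mmu-miR-92b-3p was lower in FAC than in DFO, with 33.5, 58.0 and 161 CPM against 911, 487 and 264 CPM (log2 fold change -2.72, SE 1.08, adjusted p = 0.192 in edgeR), the direction opposite to that of mmu-miR-25-3p. mmu-miR-363-3p was called lower than CON in FAC, DFO and VE, and its CON counts were 0, 0 and 371. mmu-miR-20a-5p was called higher than CON in DFO and in VE, with 0 counts in CON, 110, 1 and 66 in DFO and 125, 0 and 0 in VE. It passed the filter on summed counts through the ferric citrate groups alone, so these calls are not independent of that filter. With entries absent from a whole group set at the floor, the median log2 fold change of the 7 tested relatives was 0 for FAC against CON and -0.10 for FAC against DFO, beside 0 and 0.01 over all entries.

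The paralogous clusters miR-17 to miR-92a and miR-106a to miR-363 were poorly represented. Of 22 names, 9 were listed and 7 were tested, and 2 had more than 3 counts in at least 6 libraries, namely mmu-miR-92a-3p and mmu-miR-363-3p. mmu-miR-92a-3p, their most abundant miRNA, was at 654, 719 and 18.9 CPM in CON and 218, 262 and 487 CPM in FAC, and was called in no comparison. The calls were 0 higher and 1 lower between FAC and CON (9.51% of all entries called) and none against DFO (12.2%) or VE (9.32%). They were 1 higher and 2 lower for DFO against CON (7.68%) and 1 higher and 1 lower for VE against CON (10.4%). The higher entry was mmu-miR-20a-5p each time, with the limit of the filter given above. The third called entry was mmu-miR-18a-3p, called lower in DFO than in CON (unadjusted p = 0.0286, adjusted p = 0.602 in edgeR). Its counts were 70, 0 and 0 in CON and 0 in every DFO library, so the call rested on CON replicate 1 (57.3 CPM).

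**Figure D5:**
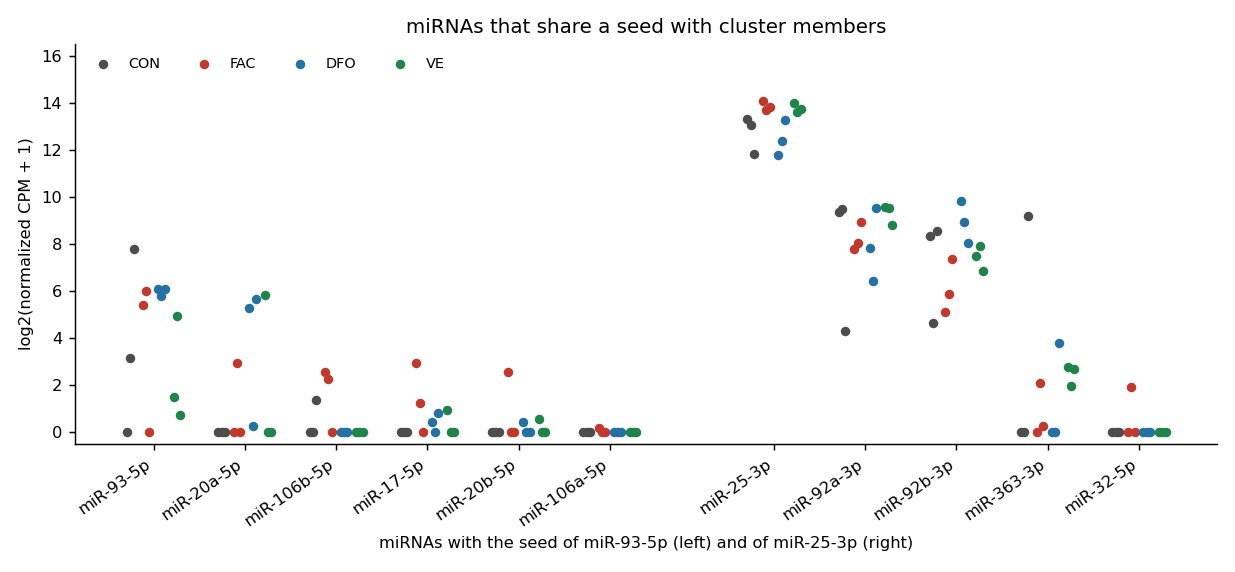
Levels of the miRNAs that share a seed with mmu-miR-93-5p (left) and with mmu-miR-25-3p (right), as log2(normalized CPM + 1) on the vertical axis, 1 point per library, coloured by group. mmu-miR-25-3p lay above every relative in every library, and most relatives on the left were at 0 in most libraries.

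Across the 12 libraries, the entries whose log2 CPM followed each member most closely are given by Pearson's r among 223 entries with more than 3 counts in at least 6 libraries, as a description. For mmu-miR-25-3p these were mmu-miR-221-3p (r = 0.873), mmu-miR-181d-5p (0.869) and mmu-miR-532-5p (0.858), with Spearman's rho of 0.713, 0.678 and 0.797. For mmu-miR-106b-3p they were mmu-miR-351-5p (r = 0.908, rho = 0.769), mmu-miR-484 (0.851, 0.727) and mmu-miR-181d-5p (0.762, 0.566). The rarer members had no entry as close: mmu-miR-3535 (r = 0.689), mmu-let-7f-5p (0.626) and mmu-miR-1249-3p (0.54) came first for mmu-miR-93-5p, with rho of 0.503, 0.552 and 0.615. For mmu-miR-25-5p they were mmu-miR-672-5p (0.659), mmu-miR-203-3p (0.656) and mmu-let-7j (0.651), with rho of 0.644, 0.669 and 0.543. All values share the libraries and their depth, which differed between groups.

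The cell type was checked with miRNAs only, since no mRNA was measured in these libraries. Of 7 miRNAs linked to granulosa cells, 5 were listed and tested, and mmu-miR-21a-5p (926 to 2910 CPM) and mmu-miR-224-5p (11.4 to 512 CPM) were found in every library. By contrast, mmu-miR-132-3p (up to 49.1 CPM) and mmu-miR-212-3p (up to 5.21 CPM) had more than 3 counts in 4 and 2 of the 12 libraries. Of that list, mmu-miR-503-5p was called higher in FAC than in DFO and lower in DFO than in CON, with 283, 361 and 9.43 CPM in CON, 196, 166 and 44.3 in FAC, 3.45, 35.7 and 0 in DFO and 48.8, 72.5 and 0 in VE. The liver miRNA mmu-miR-122-5p was also in every library, at 41724 to 183380 CPM. Of the erythroid list, the joined entry of mmu-miR-486a-5p and mmu-miR-486b-5p was at 6903 to 168935 CPM and mmu-miR-451a at 8.61 to 3798 CPM, while mmu-miR-144-3p had 1 count in all. The summed erythroid level was 29612 to 65682 CPM in CON, 7286 to 107051 in FAC, 15426 to 85822 in DFO and 89347 to 169596 in VE. Both tested erythroid entries were called higher in VE than in CON (10.4% of all entries called) and lower in FAC than in VE (9.32%). mmu-miR-122-5p was called lower in FAC than in VE. VE was the group in which mmu-miR-25-5p had 0 counts. mmu-miR-25-3p lay above every CON library in VE and in FAC alike. Between FAC and CON, the joined mmu-miR-486 entry, mmu-miR-451a and mmu-miR-122-5p were not called, with log2 fold changes of -0.09, -0.15 and -0.57. The leukocyte miRNAs mmu-miR-223-3p and mmu-miR-142a-3p had at most 17 and 1 counts in a library, and mmu-miR-142a-5p and mmu-miR-150-5p, the rest of that list, reached 60.3 and 367 CPM. None of the 3 tested leukocyte entries was called in any comparison, where 7.68% to 12.2% of all entries were. Of the muscle list, mmu-miR-1a-3p was called lower than CON in FAC, DFO and VE, with 481, 0 and 291 CPM in CON and at most 52.0 CPM elsewhere. mmu-miR-206-3p, at 15.7 to 866 CPM, was called higher in DFO than in CON. The neural mmu-miR-9-5p had 0 counts in all CON and FAC libraries, 0, 13 and 198 in DFO and 40, 22 and 27 in VE. It was called higher in DFO and in VE than in CON, and lower in FAC than in DFO and in VE. It entered the fit through its DFO and VE counts alone, so these calls are not independent of the filter on summed counts. The part of these miRNAs and of those named before them in the values of the members was not tested.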

How the data were processed

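Exosomal small RNA of cultured mouse granulosa cells was measured by Illumina sequencing with reads of 15 to 41 bp. The authors deposited raw counts for 637 entries in each of 12 libraries, 5 of which join 2 miRNAs. The authors also deposited RPM values, named TPM in the files. Count divided by RPM gave 1 read total per library, between 22631206 and 24845945. The submitters' processing notes name the build mm9. The aligner, the miRNA database and the treatment of reads with several matches are not given in the sources used here. The files hold no coordinates, and positions and sequences are those of RefSeq for GRCm38.p6.

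Counts were tested with edgeR 4.0.16 (R 4.3.3), TMM and a quasi-likelihood fit of the 547 entries with at least 10 counts in all, with contrasts between groups. The common biological coefficient of variation was 1.57. Every member had at least 10 counts in all, but mmu-miR-106b-5p passed this filter through its FAC libraries, so its difference from the other groups is not independent of the filter. Exact permutation tests, Wilson 95% intervals and figures were made with SciPy 1.17.1, pandas 2.3.3, NumPy 2.4.6 and matplotlib 3.10.9 under Python 3.11.15. Alternative fits used limma 3.58.1 and DESeq2 1.42.0. The fit was also run on simulated counts, whose outcome is not given here, so this run says nothing on how well the fit performed. The members and lists were chosen with earlier results of these data known. Named were the members, the other arm of miR-93, the most abundant or called entries of the lists, and the 3 entries closest to each member in log2 CPM with a prior count of 2. Replicate numbers come from the labels, and no source says that they mark a shared batch. Of the 66 pairs of libraries none agreed within sampling noise, with a smallest chi-square per degree of freedom of 101.9.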

Additional observations from a re-analysis of the deposited data

Results flagged for a closer look

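mmu-miR-93-3p, the arm of the miR-93 hairpin that is not among the members, had 73 counts (8.55 CPM) in FAC replicate 1 and 0 in all CON libraries. It stands here as an entry outside the members. In the edgeR fit it was not called between FAC and CON (log2 fold change 6.35, SE 5.27, adjusted p = 0.607 in edgeR). It passed the filter on summed counts through FAC replicate 1. The floors of CON replicates 1 to 3 were 2.46, 7.90 and 4.72 CPM, so that of CON replicate 2 was close to its level. FAC replicate 2 and DFO replicate 2 had 2 counts each, below the floor of 3, and the other libraries had 0.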

How the results depend on the processing

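Of 263 fold changes of members under the alternatives that kept all libraries, 210 kept their direction and side of the threshold, 18 passed it newly, 8 no longer passed it and 27 changed direction. Against main values of 2, 1, 1, 0 and 1, the number of called members between FAC and CON was 1 with RLE size factors or the 2 compared groups only, 0 with the filterByExpr filter or the replicate block, and 3 in each limma fit. Over all entries, RLE size factors called 61 of 547, the 2 groups only 48 of 495 and filterByExpr 36 of 312. The limma fits called 195 and 203 of 547, all higher in FAC, and the replicate block called 39 of 547. With that block, mmu-miR-25-3p was at 1.01 (adjusted p = 0.672 in edgeR) and mmu-miR-25-5p at -1.57 (adjusted p = 0.917 in edgeR) between FAC and CON, and neither was called. Between FAC and DFO limma gave 3 on log2(RPM + 1), and 2 with the pseudocount 0.1 (124 and 127 of all 547 entries called). Between FAC and VE it was 2 with library read totals, 3 in limma with a pseudocount of 1 and 2 with 0.1 (81, 113 and 97 entries). Between DFO and CON it was 1 with library read totals and 1 in limma with 1 (93 and 92 entries). Between VE and CON it was 2 with no composition factor (58 entries), with library read totals (118) or the 2 groups only (42 of 349). DESeq2 (65 entries) and limma with 0.1 (92) also gave 2. Leaving out 1 library at a time gave 0 to 2, 0 to 1, 1 to 1, 0 to 0 and 1 to 2. Log2 fold changes of the opposite direction under library read totals, limma with 1 and limma with 0.1 were 2.56, 1.80 and 2.58 for mmu-miR-93-5p between FAC and CON and 2.04, 2.06 and 3.803 between DFO and CON. Between DFO and CON they were 1.59, 1.44 and 1.49 for mmu-miR-106b-3p, 1.53, 1.77 and 1.78 for mmu-miR-25-3p and 0.48, 0.37 and 0.51 for mmu-miR-25-5p, and between VE and CON 1.24, 1.66 and 1.72 for mmu-miR-106b-3p. Both limma fits gave mmu-miR-25-5p 0.38 and 1.18 between FAC and CON and 0.018 and 0.68 for FAC against DFO. Single alternatives gave mmu-miR-93-5p 0.53 between FAC and DFO (library read totals) and 0.11 between VE and CON (limma with 0.1), and filterByExpr gave -0.11 for mmu-miR-106b-3p (FAC against CON) and -0.077 for mmu-miR-25-3p (FAC against VE). With single libraries left out, mmu-miR-106b-3p ranged from -0.025 to 0.66 between FAC and CON, -0.64 to 0.23 between DFO and CON and -0.62 to 0.19 between VE and CON. mmu-miR-93-5p ranged from -1.69 to 3.48, -0.87 to 4.17 and -5.93 to 1.44 in these comparisons, and mmu-miR-25-3p from -0.74 to 0.056 between DFO and CON. The miR-106b 5p share turned to -0.044 percentage points between FAC and CON and 0.14 between CON and the 9 ferric citrate libraries after thinning, with -0.12 to 0.057 in the latter when 1 library was left out. The miR-25 3p share of CON lay -7.82 to -1.33 points from these 9. The cause of each change was not tested. Some alternatives hold fewer entries or libraries by construction. Deviations of same-numbered libraries from their group means had a mean correlation of 0.00421 (18 pairs), beside -0.00202 for other numbers (36 pairs). Of 12 libraries, 4 were closest to a library of their own number. With means of 3 libraries, this check cannot decide whether replicate numbers pair the libraries. The replicate block gave mmu-miR-25-5p 0.17 between FAC and DFO, with the direction turned. The 3 rare members, mmu-miR-106b-5p, mmu-miR-93-5p and mmu-miR-25-5p, had 0 counts in 9, 2 and 3 libraries. These were not always the shallow ones. mmu-miR-25-5p had 0 counts in VE, with 2227419 to 3530978 miRNA counts per library, and 115 in CON replicate 2, with 452021. The part of depth in these values was not tested.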
